A study of Homo sapiens with 6 samples.

Results

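The TGF-beta, BMP and activin pathway was described here in an ovarian cancer cell line and its drug-resistant derivative through 56 of the 58051 genes of the deposited table. The 56 genes were taken by name: 26 ligands or ligand subunits, 12 type I and type II receptors, 1 co-receptor, 8 SMADs, 5 secreted antagonists and 4 latent TGF-beta binding proteins. All 56 were found in the table by their Ensembl identifiers. The tested line was A2780-ADR, an adriamycin-resistant (doxorubicin-resistant) multidrug resistance line, and its reference was A2780, the doxorubicin-sensitive parental human ovarian cancer line. Each line was given by 3 untreated samples grown in the same medium, so the series holds 6 samples and 1 pair of lines. Nothing in the labels places the 3 samples of a line in separate cultures, so the p-values below cover the scatter among these samples only, and that scatter may be technical.

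As background, ligands of this family are secreted dimers that bring together type II and type I serine/threonine kinase receptors at the cell surface. The type I receptor then phosphorylates the receptor-regulated SMADs: SMAD2 and SMAD3 carry TGF-beta, activin and nodal signals, SMAD1, SMAD5 and SMAD9 carry BMP signals, and both branches act with SMAD4 in the nucleus. TGF-beta is secreted in a latent form held in the matrix, and secreted antagonists, co-receptors and inhibitory SMADs set how much signal passes. In the ovary, inhibins, activins, AMH and several BMPs and GDFs are best known as regulators of the follicle.

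Values below are normalized counts, that is, reads per gene divided by a size factor of the sample, and a level "per kb" is a normalized count divided by the summed exon length of the gene in kilobases. Samples held 29653423 to 30513366 reads in genes in A2780-ADR and 27775745 to 29078438 in A2780, and mitochondrially encoded genes took 5.95% to 6.26% of them in A2780-ADR and 5.54% to 6.36% in A2780. ABCB1, the drug efflux pump for which the resistant line is known, had 26770, 27780 and 29510 normalized counts in the A2780-ADR samples, against 0, 2.04 and 1.06 in the A2780 samples. Genes averaging 10 or more normalized counts across the 6 samples were tested with limma on log2(normalized count + 1), and a gene was called higher or lower at a Benjamini-Hochberg adjusted p under 0.05 together with a change of more than 2-fold. Of 17005 genes tested, 27.6% were called: 13.2% were higher in A2780-ADR and 14.4% were lower. In RNA from whole cultures, a smaller share of cells that express a gene and less RNA of it per cell cannot be told apart.

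Of the 56 pathway genes, 40 passed the low-count filter, and 23 of these 40 were called, 8 higher and 15 lower in A2780-ADR, which is 57.5% beside 27.6% of all tested genes. Higher genes were BMP6, BMP8B, LEFTY2, ACVRL1, ACVR2A, AMHR2, CHRD and FST. Lower genes were TGFB2, TGFB3, INHBE, GDF11, AMH, TGFBR1, TGFBR2, TGFBR3, SMAD4, SMAD6, SMAD7, FSTL3, LTBP1, LTBP2 and LTBP3. The median log2 fold change (A2780-ADR minus A2780) of the 40 was -0.65, beside -0.01 for all tested genes, whose middle range ran from -0.49 to 0.50. Of the 40, 5 passed the filter through a single line: BMP6, LEFTY2, ACVRL1 and CHRD had a mean under 10 in A2780, and BMP5 had a mean under 10 in A2780-ADR. Among the 35 genes with a mean of at least 10 in each line, 4 were higher and 15 were lower, with a median of -0.83. Of the 17 tested genes that were not called, 13 had an adjusted p under 0.05 in limma with a change under 2-fold. At any fold, 11 of the 40 were higher and 25 were lower at an adjusted p under 0.05, beside 71.8% of all tested genes in both directions. The samples of the lines did not overlap in 37 of the 40 genes, beside 74.6% of all tested genes.

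**Figure D1:**
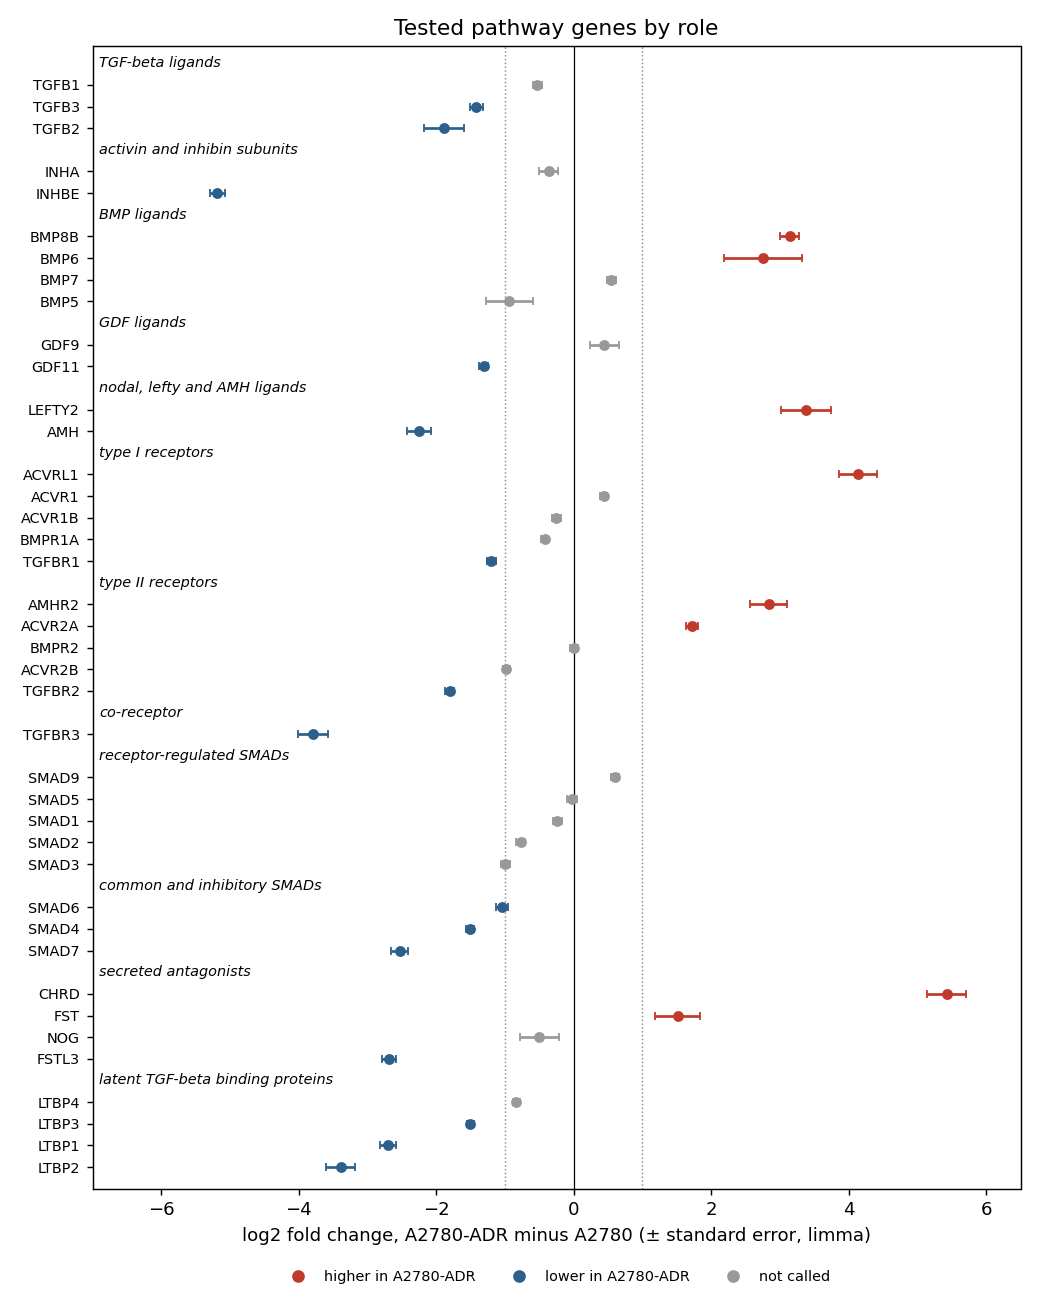
Log2 fold change (A2780-ADR minus A2780, x axis) of the 40 tested pathway genes, grouped by role, with bars of 1 standard error from limma and dotted lines at a 2-fold change. The SMAD, latent TGF-beta binding protein and TGF-beta ligand groups hold no called gene to the right of 0, and the ends of the range are INHBE at -5.18 and CHRD at 5.42.

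Among the TGF-beta ligands, TGFB2 and TGFB3 were lower in A2780-ADR. TGFB3 had 190, 225 and 193 normalized counts in A2780-ADR, against 512, 570 and 540 in A2780, a log2 fold change of -1.42 ± 0.09 (SE; adjusted p = 5.26e-08, limma). TGFB2, the isoform that relies most on the co-receptor TGFBR3 for binding, had 9.46, 11.6 and 20.2 normalized counts in A2780-ADR, against 57.0, 57.0 and 41.2 in A2780 (-1.89 ± 0.29, adjusted p = 8.46e-05, limma). In both genes the highest A2780-ADR sample lay below the lowest A2780 sample. TGFB1 averaged 1656 ± 131 normalized counts in A2780-ADR and 2394 ± 118 in A2780 (SD, n = 3 each), and its log2 fold change of -0.53 was under 2-fold (adjusted p = 1.23e-05, limma). TGFB1 was the main isoform of both lines: per kb, it made up 92.1% of the summed level of the 3 ligands in A2780-ADR and 86.0% in A2780.

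INHBE, which encodes the beta subunit of activin E and is best known from liver, showed the largest fall of the 40 tested genes (ENSG00000139269, chromosome 12, 57452323 to 57459280, GRCh38). It had 39.7, 40.5 and 50.04 normalized counts in A2780-ADR, against 1680, 1598 and 1541 in A2780, and its mean was 37.0-fold lower (log2 fold change -5.18 ± 0.11, adjusted p = 1.8e-12, limma). The 3 samples of each line lay close together, far from those of the other line. INHA, the inhibin alpha subunit, averaged 81.4 ± 6.92 normalized counts in A2780-ADR and 105.0 ± 6.09 in A2780 (SD, n = 3 each; log2 fold change -0.37, adjusted p = 0.0315, limma). INHBA, the beta subunit of activin A, was under the filter: 48 reads over the 3 A2780-ADR samples and 0 reads over the A2780 samples, which is at least 14.9-fold higher when A2780 is set to a floor of 3 reads over the line. INHBB had 5 reads in A2780-ADR and 1 in A2780.

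The called BMP ligands, BMP8B and BMP6, were both higher in A2780-ADR. BMP8B, known in mice from thermogenic fat, had 387, 328 and 335 normalized counts in A2780-ADR, against 41.7, 33.6 and 41.2 in A2780 (log2 fold change 3.14 ± 0.14, adjusted p = 1.16e-09, limma). BMP6 had 15.1, 25.05 and 14.4 normalized counts in A2780-ADR, against 4.07, 0 and 3.17 in A2780 (2.75 ± 0.56, adjusted p = 0.000839, limma). All A2780-ADR samples of both genes were above all A2780 samples, with BMP6 resting on 57 reads in A2780-ADR and 7 in A2780. BMP7, an osteogenic and kidney-patterning BMP, was the main BMP of both lines and averaged 902 ± 57.0 normalized counts in A2780-ADR and 617 ± 8.21 in A2780 (SD, n = 3 each), with a log2 fold change of 0.54 (adjusted p = 1.27e-05, limma). BMP5 averaged 7.33 ± 1.40 normalized counts in A2780-ADR and 15.5 ± 5.50 in A2780 (SD, n = 3 each; -0.94, adjusted p = 0.0281, limma) and was not called, but it passed 2-fold without A2780-ADR replicate 1 (-1.04) or A2780 replicate 1 (-1.25). Per kb, the summed level of the 8 BMP ligands was 256 ± 14.5 in A2780-ADR and 132 ± 2.17 in A2780. BMP8B made up 28.3% of that sum in A2780-ADR and 6.10% in A2780, and BMP7 made up 64.9% in A2780-ADR and 86.5% in A2780. Reads of BMP8B can be shared with its near-identical neighbour BMP8A, which had 26 reads in A2780-ADR and 18 in A2780, and its exons overlap PPIE on the other strand, which averaged 2068 normalized counts in A2780-ADR and 1829 in A2780.

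Of the remaining ligands, GDF11 and AMH were lower in A2780-ADR and LEFTY2 was higher. GDF11, a SMAD2 and SMAD3 activating ligand of axial patterning, had 828, 898 and 817 normalized counts in A2780-ADR, against 2268, 2096 and 1958 in A2780 (log2 fold change -1.31 ± 0.07, adjusted p = 4.04e-09, limma). AMH, anti-Mullerian hormone, had 55.8, 59.7 and 36.6 normalized counts in A2780-ADR, against 236, 238 and 243 in A2780 (-2.25 ± 0.18, adjusted p = 2.34e-07, limma). Neither gene had a sample of A2780-ADR within the A2780 range. LEFTY2, a secreted inhibitor of nodal, had 19.9, 19.3 and 32.7 normalized counts in A2780-ADR, against 1.02, 1.02 and 2.11 in A2780 (3.38 ± 0.37, adjusted p = 4.6e-06, limma). Its near-identical copy LEFTY1 had 4 reads in A2780-ADR and 0 in A2780, and reads that match both copies cannot be assigned with certainty. GDF9, an oocyte ligand, averaged 33.5 ± 3.39 normalized counts in A2780-ADR and 24.4 ± 3.49 in A2780 (SD, n = 3 each; 0.45, adjusted p = 0.0815, limma).

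Of the 56 genes, 16 were under the filter, and their reads are given over the 3 samples of a line. GDF3 and GREM1 had 0 reads in every sample. In a fit without the filter, in which 20.3% of 34588 genes were called, 5 of the 16 passed the same thresholds: INHBA (adjusted p = 1.1e-05), BMP4 (0.00696), GDF7 (0.0216) and NODAL (0.0222) as higher and GDF10 (0.0125) as lower in A2780-ADR (limma). BMP4 had 32 reads in A2780-ADR and 5 in A2780, NODAL had 30 and 6, and GDF10 had 0 and 5. GDF7 had 22 reads in A2780-ADR and 1 in A2780, a ratio of 20.4 with a 95% interval of 3.30 to 844 that covers counting error only, but 1 A2780-ADR sample, at 0.95 normalized counts, lay below the highest A2780 sample, at 1.06. The rest had few reads in both lines: 6 and 6 for BMP2, 6 and 4 for BMP3, 11 and 15 for GDF5, 2 and 3 for GDF6, 16 and 9 for the receptor gene ACVR1C, and 1 and 1 for the receptor gene BMPR1B, each with A2780-ADR first. At these reads only a large difference could have passed the thresholds.

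TGFBR1 and TGFBR2 were lower in A2780-ADR, while 3 other type I or type II receptor genes were higher. TGFBR2, the type II receptor that binds TGF-beta, had 459, 484 and 508 normalized counts in A2780-ADR, against 1724, 1746 and 1611 in A2780 (log2 fold change -1.81 ± 0.06, adjusted p = 1.71e-10, limma). TGFBR1, its type I partner, had 790, 688 and 786 normalized counts in A2780-ADR, against 1664, 1822 and 1703 in A2780 (-1.20 ± 0.07, adjusted p = 1.25e-08, limma). In both, every A2780-ADR sample was below every A2780 sample. TGFBR3 (betaglycan), the co-receptor that presents TGF-beta and inhibin, had 28.4, 19.3 and 13.5 normalized counts in A2780-ADR, against 276, 297 and 278 in A2780, so that its mean was 13.9-fold lower (-3.79 ± 0.22, adjusted p = 1.77e-08, limma). The A2780 samples of TGFBR3 stayed within a narrow range far above all A2780-ADR samples.

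Among type I and type II receptors, 3 genes were higher in A2780-ADR. ACVRL1 (ALK1), a type I receptor best known from endothelium, had 51.1, 57.8 and 67.4 normalized counts in A2780-ADR, against 2.04, 2.04 and 3.17 in A2780 (log2 fold change 4.14 ± 0.28, adjusted p = 5.8e-08, limma). AMHR2, the type II receptor of AMH, had 67.2, 79.0 and 77.0 normalized counts in A2780-ADR, against 6.10, 10.2 and 13.7 in A2780 (2.83 ± 0.27, adjusted p = 1.59e-06, limma). Thus AMH was lower and AMHR2 was higher in A2780-ADR, with no overlap between the lines in either gene. ACVR2A, an activin type II receptor, had 554, 555 and 619 normalized counts in A2780-ADR, against 181, 162 and 178 in A2780 (1.72 ± 0.09, adjusted p = 5.54e-09, limma). Exons of ACVR2A overlap ORC4 on the other strand, which averaged 1614 normalized counts in A2780-ADR and 1049 in A2780 and was not called (0.62). The strand setting of the counting is not given in the sources used here, so the reads of such a pair cannot be assigned with certainty, and the same holds for TGFB1 with HNRNPUL1, GDF9 with UQCRQ and NODAL with AC022532.1.

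The other receptor genes were not called. ACVR2B averaged 846 ± 38.6 normalized counts in A2780-ADR and 1667 ± 38.7 in A2780 (SD, n = 3 each), a log2 fold change of -0.98 that was just inside 2-fold (adjusted p = 1.42e-08, limma) and passed it without A2780-ADR replicate 3 (-1.01). BMPR2, the main BMP type II receptor, averaged 2423 ± 168 normalized counts in A2780-ADR and 2417 ± 55.1 in A2780 (0.00 ± 0.06, adjusted p = 0.987, limma), and the samples of the lines overlapped. Log2 fold changes of the type I receptors ACVR1, ACVR1B and BMPR1A were 0.43, -0.25 and -0.42. The makeup of the receptor pools differed accordingly. Per kb, TGFBR2 made up 22.1% ± 0.74 of the summed type II receptor level in A2780-ADR and 51.6% ± 1.24 in A2780 (SD, n = 3 each), ACVR2A made up 18.2% in A2780-ADR and 3.68% in A2780, and BMPR2 made up 43.6% in A2780-ADR and 29.1% in A2780. On this scale TGFBR2 was the leading type II receptor gene of A2780, and BMPR2 that of A2780-ADR. In normalized counts BMPR2 led in A2780 too, at 2417 beside 1694 for TGFBR2. The leader in A2780 thus depends on the summed exon lengths, 11900 bases for BMPR2 and 4704 for TGFBR2, which count every annotated isoform. Of the summed type I receptor level, TGFBR1 made up 17.6% ± 1.21 in A2780-ADR and 34.1% ± 0.998 in A2780, and ACVR1, a BMP type I receptor, made up 45.9% in A2780-ADR and 28.7% in A2780. ACVRL1, in spite of its large fold change, made up 1.86% of the type I sum in A2780-ADR and 0.06% in A2780.

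**Figure D2:**
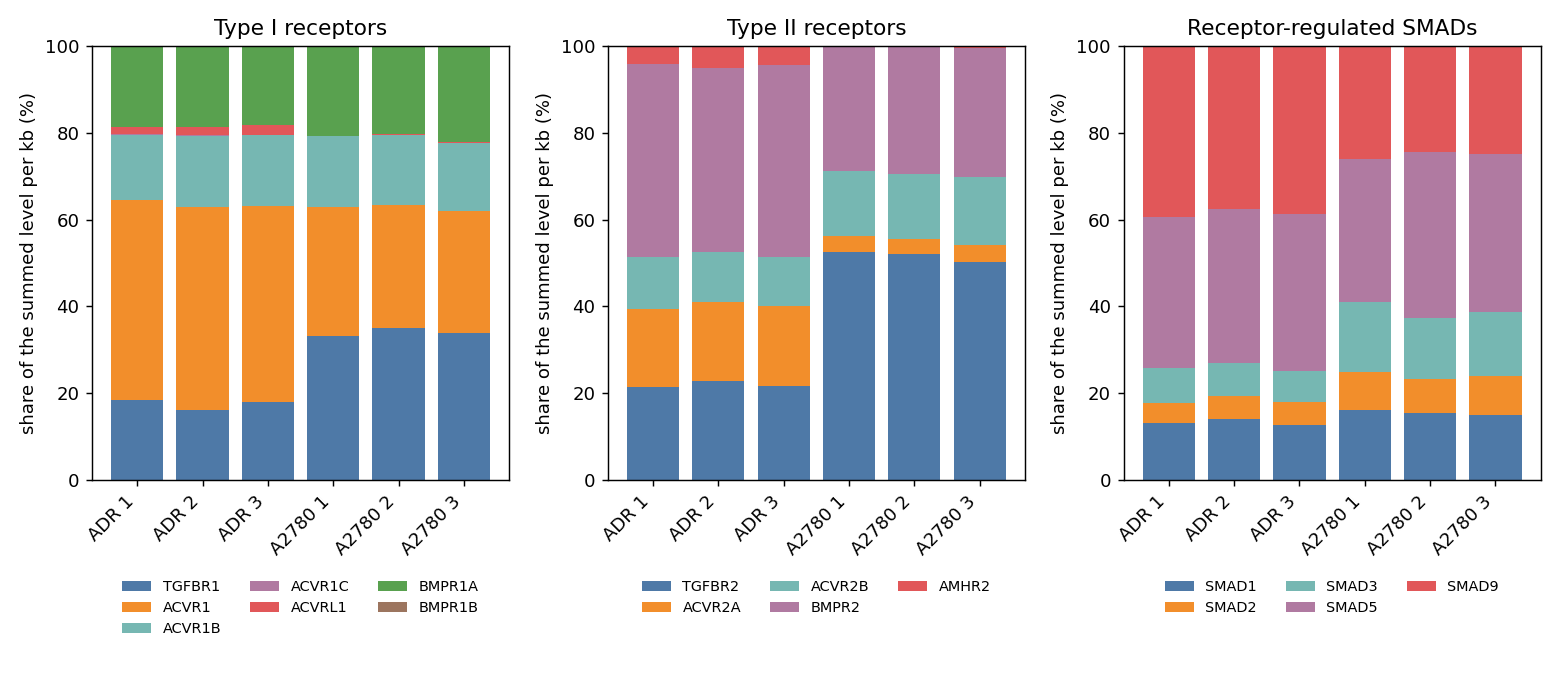
Share (%) of each gene in the summed level per kb of type I receptors, type II receptors and receptor-regulated SMADs, 1 bar per sample, with A2780-ADR samples (ADR) left of A2780 samples. TGFBR2 takes 21.5% to 22.9% of the type II bar in A2780-ADR and 50.2% to 52.5% in A2780, and SMAD9 takes 37.5% to 39.4% of the SMAD bar in A2780-ADR and 24.5% to 25.9% in A2780.

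The bases upstream of the start of the paired TGF-beta receptor genes are printed here because TGFBR1 and TGFBR2 were lower together. Each is the 250 bases before a RefSeq transcription start (GRCh38.p14, written 5' to 3'), with 1 of 8 RefSeq starts shown for TGFBR1 and 1 of 2 for TGFBR2, whose window ends 146 bases before the gene start in GENCODE. Capitals mark a short SMAD box, CAGAC or GTCTG on the reverse strand, which is the core of many SMAD-binding sites.
TGFBR1, chr9:99103802-99104051, plus strand: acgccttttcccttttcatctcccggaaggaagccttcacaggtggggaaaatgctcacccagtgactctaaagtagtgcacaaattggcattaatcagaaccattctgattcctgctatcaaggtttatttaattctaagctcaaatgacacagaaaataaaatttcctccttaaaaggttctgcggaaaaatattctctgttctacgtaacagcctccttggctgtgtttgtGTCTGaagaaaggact
TGFBR2, chr3:30606106-30606355, plus strand: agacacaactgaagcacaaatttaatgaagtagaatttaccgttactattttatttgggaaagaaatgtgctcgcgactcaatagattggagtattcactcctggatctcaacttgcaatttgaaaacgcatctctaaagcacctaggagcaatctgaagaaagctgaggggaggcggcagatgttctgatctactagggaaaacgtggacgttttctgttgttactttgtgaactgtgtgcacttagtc
The TGFBR1 window held 1 short SMAD box and 40.8% G and C, and the TGFBR2 window held no match and the same 40.8% G and C. The last 14 bases of the TGFBR1 window are annotated TGFBR1 exon, and the box lies partly within them. On either strand the box occurs in 38.0% of all 35116 RefSeq promoter windows of this length, and in 37.3% of the 83 windows that belong to 47 of the pathway genes. A match describes the letters only.

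Among the SMADs, SMAD4 and both inhibitory SMADs were lower in A2780-ADR, and none of the 5 receptor-regulated SMADs was called. SMAD4, the shared partner of both branches, had 593, 631 and 648 normalized counts in A2780-ADR, against 1678, 1826 and 1840 in A2780 (log2 fold change -1.51 ± 0.06, adjusted p = 6.5e-10, limma). SMAD7, which blocks type I receptors and is induced by TGF-beta and BMP signals, had 128, 110 and 102 normalized counts in A2780-ADR, against 749, 682 and 553 in A2780 (-2.53 ± 0.13, adjusted p = 3.76e-09, limma). The lines did not overlap in either gene, and the A2780-ADR samples of SMAD7 were all below 130. SMAD6, which acts mainly against BMP signals, had 577, 574 and 456 normalized counts in A2780-ADR, against 1091, 1082 and 1133 in A2780 (-1.05 ± 0.09, adjusted p = 4.72e-07, limma). Its change is close to 2-fold, and without A2780-ADR replicate 3, the lowest sample, it was -0.94 and no longer past that threshold.

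SMAD3 averaged 476 ± 21.0 normalized counts in A2780-ADR and 950 ± 47.5 in A2780 (SD, n = 3 each), a log2 fold change of -0.99 that missed the 2-fold threshold by little (adjusted p = 6.97e-08, limma) and passed it without A2780-ADR replicate 1 or A2780 replicate 2 (-1.03 each). SMAD2 averaged 1273 ± 106 normalized counts in A2780-ADR and 2175 ± 153 in A2780 (-0.77), and SMAD1 averaged 557 ± 8.64 in A2780-ADR and 657 ± 2.62 in A2780 (-0.24). SMAD9 averaged 1525 ± 104 normalized counts in A2780-ADR and 1004 ± 13.8 in A2780 (0.60, adjusted p = 2.51e-06, limma), a value under 2-fold. SMAD5 averaged 2222 ± 144 in A2780-ADR and 2272 ± 219 in A2780, with overlapping samples (-0.03, adjusted p = 0.727, limma). Per kb, the summed level of the 5 receptor-regulated SMADs was 692 ± 36.0 in A2780-ADR and 699 ± 20.4 in A2780, within the spread of the samples. Within that sum, SMAD3 made up 7.57% in A2780-ADR and 14.9% in A2780, SMAD2 made up 5.06% in A2780-ADR and 8.55% in A2780, and SMAD9 made up 38.5% in A2780-ADR and 25.1% in A2780. The level per kb of SMAD2 is small partly through its summed exon length of 36366 bases, which counts every annotated isoform. In normalized counts, the summed level of the 5 was lower in A2780-ADR, at 5778 to 6423, against 6835 to 7327 in A2780. The near-equal sums thus depend on the per kb scale.

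As to position, SMAD2, SMAD4 and SMAD7 lie on chromosome 18, as does NEDD4L, a SMAD regulator described below. Of 240 tested genes of this chromosome, 21 were higher and 89 were lower in A2780-ADR. The lower share was 37.1%, beside 14.4% of all tested genes, and was the highest among the chromosomes with at least 100 tested genes. The median log2 fold change of the chromosome was -0.67, and it was -0.996 over the 82 tested genes from the first of SMAD2 and SMAD7 to the end of the chromosome, of which 6 were higher and 41 were lower. The 158 tested genes before that point had a median of -0.37, with 15 higher and 48 lower. Both chromosomes were picked after the values were seen, and their part in the SMAD, TGFB3 and LTBP2 values was not tested.

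**Figure D3:**
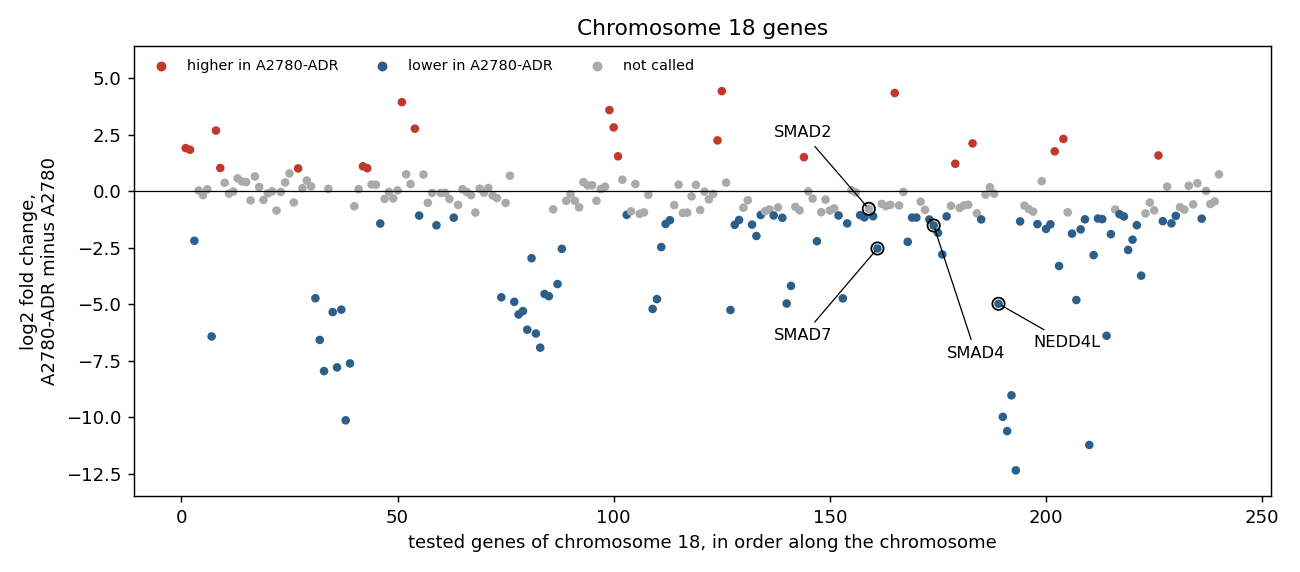
Log2 fold change (A2780-ADR minus A2780, y axis) of the 240 tested genes of chromosome 18 in their order along the chromosome (x axis), with SMAD2, SMAD7, SMAD4 and NEDD4L ringed. Most genes right of SMAD2 lie below 0, and NEDD4L, at -4.98, lies far below SMAD4 at -1.51 and SMAD7 at -2.53. The tested genes that follow NEDD4L directly lie lower still: MALT1 at -9.98, ZNF532 at -10.62, SEC11C at -9.03 and LMAN1 at -12.355.

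The SMAD6 window is printed because it was the only window of the pathway genes with the full palindromic SMAD-binding element, GTCTAGAC, shown in capitals (GRCh38.p14, 5' to 3').
SMAD6, chr15:66701986-66702235, plus strand: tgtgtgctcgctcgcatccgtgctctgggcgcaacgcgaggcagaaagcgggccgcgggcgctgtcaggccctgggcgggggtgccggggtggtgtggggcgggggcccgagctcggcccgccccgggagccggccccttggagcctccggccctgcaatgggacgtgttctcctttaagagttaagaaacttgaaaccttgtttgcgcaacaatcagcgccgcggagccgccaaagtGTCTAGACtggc
The element reads the same on both strands and occurs in 0.182% of all 35116 windows. In SMAD6 it ends 4 bases before the RefSeq start. The last 8 bases of this window are annotated SMAD6 exon, so the element lies partly within that exon. Its presence says nothing on its own about the lower level in A2780-ADR.

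Of the 4 tested secreted antagonists, CHRD and FST were higher in A2780-ADR and FSTL3 was lower. CHRD (chordin), which binds BMPs and keeps them from their receptors, showed the largest rise of the 40 tested genes (ENSG00000090539, chromosome 3, 184380073 to 184390736, GRCh38). It had 116, 128 and 132 normalized counts in A2780-ADR, against 1.02, 3.06 and 2.11 in A2780 (log2 fold change 5.42 ± 0.29, adjusted p = 7e-09, limma), and A2780 rested on 6 reads in all. CHRD exons overlap THPO on the other strand, which had 33.1, 45.3 and 32.7 normalized counts in A2780-ADR, against 1.02, 0 and 0 in A2780, and which of the overlapping genes gave the shared reads was not tested. FST (follistatin), which binds activins, had 35.0, 26.01 and 27.9 normalized counts in A2780-ADR, against 6.10, 9.17 and 15.8 in A2780 (1.51 ± 0.33, adjusted p = 0.00126, limma). FSTL3, a close relative that also binds activins, was lower, with 113, 112 and 126 normalized counts in A2780-ADR, against 833, 764 and 681 in A2780 (-2.69 ± 0.10, adjusted p = 2.81e-10, limma). The lines did not overlap in any of the 3 genes. Per kb, FST stood at 9.98 ± 1.59 in A2780-ADR and 3.49 ± 1.68 in A2780, and FSTL3 at 38.1 ± 2.62 in A2780-ADR and 248 ± 24.9 in A2780, so FSTL3 was the higher of the pair in each line. NOG (noggin), a BMP antagonist, averaged 26.7 ± 11.4 normalized counts in A2780-ADR and 36.4 ± 5.15 in A2780 (SD, n = 3 each; -0.50, adjusted p = 0.131, limma), and its samples overlapped.

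The windows of CHRD and FSTL3, the largest rise and the largest fall among the 5 antagonists of the pathway genes, are printed for comparison. Capitals mark a GC-rich SMAD motif, GGCGCC, which reads the same on both strands (GRCh38.p14, 5' to 3').
CHRD, chr3:184379804-184380053, plus strand: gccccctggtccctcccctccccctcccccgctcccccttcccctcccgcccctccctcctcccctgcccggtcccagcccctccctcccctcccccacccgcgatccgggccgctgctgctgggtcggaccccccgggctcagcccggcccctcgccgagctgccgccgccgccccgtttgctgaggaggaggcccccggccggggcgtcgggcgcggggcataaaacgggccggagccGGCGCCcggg
FSTL3, chr19:676142-676391, plus strand: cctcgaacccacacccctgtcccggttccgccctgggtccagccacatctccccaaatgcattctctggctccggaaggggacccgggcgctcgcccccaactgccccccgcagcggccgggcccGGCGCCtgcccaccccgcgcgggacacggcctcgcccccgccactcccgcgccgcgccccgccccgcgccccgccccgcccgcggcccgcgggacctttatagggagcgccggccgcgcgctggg
Both windows held 1 match, and both were rich in G and C, at 81.6% in CHRD and 80.0% in FSTL3. CHRD and FSTL3, which moved in opposite directions, thus shared the motif. It occurs in 16.4% of all windows and in 25.3% of the windows of the pathway genes, some of which have more than 1 window. These shares were not matched for G and C content, and their difference was not tested.

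Of the latent TGF-beta binding proteins, 3 of 4 were lower in A2780-ADR. LTBP1, which anchors latent TGF-beta to the matrix, had 69.0, 57.8 and 62.6 normalized counts in A2780-ADR, against 435, 390 and 425 in A2780 (log2 fold change -2.71 ± 0.11, adjusted p = 8.52e-10, limma). LTBP3, which has the same role, had 1013, 1061 and 970 normalized counts in A2780-ADR, against 3021, 2825 and 2781 in A2780 (-1.50 ± 0.06, adjusted p = 2.62e-10, limma). LTBP2, a family member that does not bind latent TGF-beta, had 9.46, 14.4 and 15.4 normalized counts in A2780-ADR, against 155, 138 and 139 in A2780, so its mean was 11.0-fold lower (-3.39 ± 0.21, adjusted p = 2.75e-08, limma). No A2780-ADR sample of the 3 genes reached the A2780 range. LTBP4 averaged 7790 ± 459 normalized counts in A2780-ADR and 13890 ± 343 in A2780 (SD, n = 3 each), and its log2 fold change of -0.84 was under 2-fold (adjusted p = 1.75e-08, limma). Per kb, LTBP4 was by far the largest of the family, at 89.8% of the summed level in A2780-ADR and 83.0% in A2780, and that sum was 1069 ± 60.4 in A2780-ADR and 2065 ± 56.2 in A2780.

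**Figure D4:**
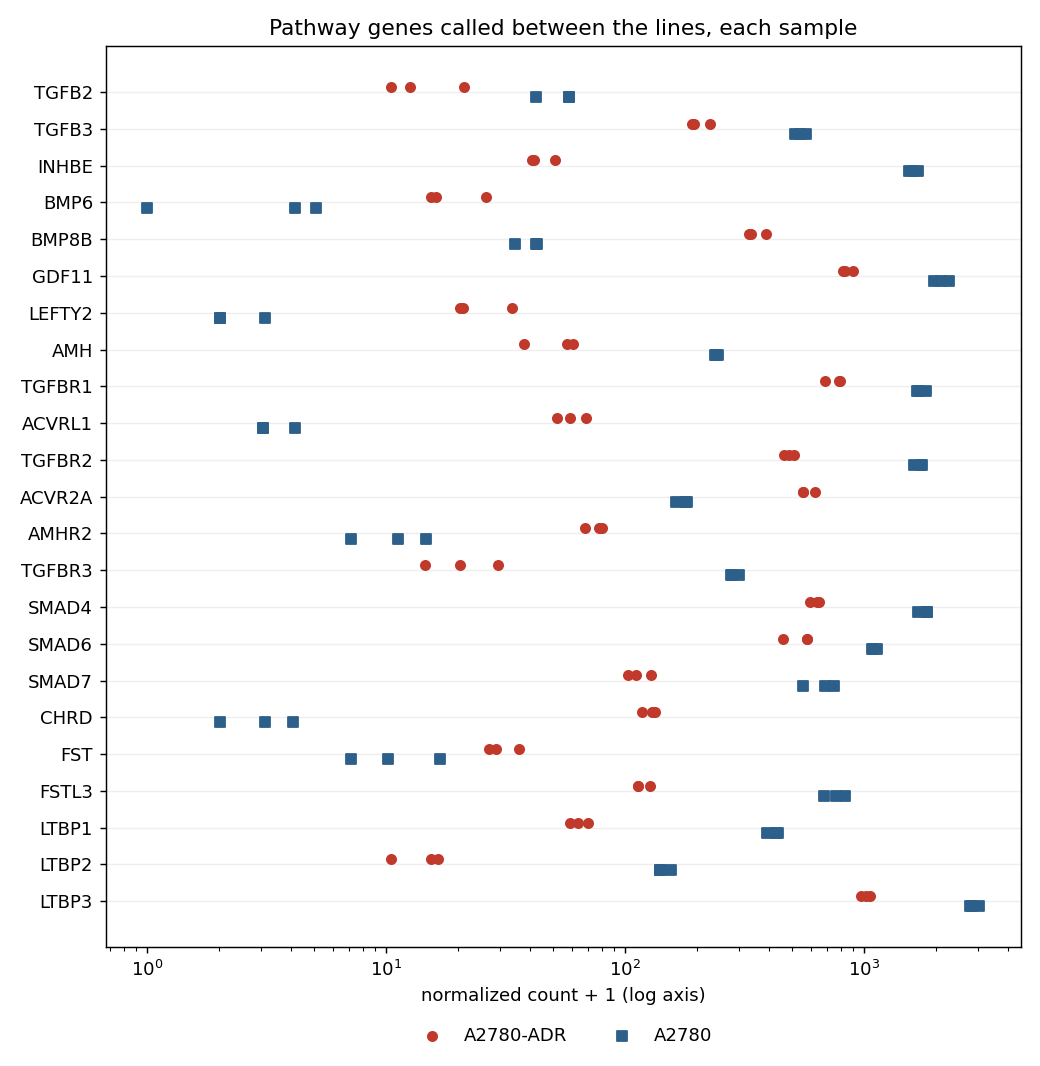
Normalized count + 1 on a log axis for each of the 23 called pathway genes, with 1 red circle per A2780-ADR sample and 1 blue square per A2780 sample. The samples of the lines are apart in every row, by least in FST, where A2780-ADR starts at 26.01 and A2780 reaches 15.8, and next in SMAD6, where A2780-ADR reaches 577 and A2780 starts at 1082.

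Lists of related genes were read from the same fit, and none was tested as a list. Of all tested genes, 13.2% were higher in A2780-ADR and 14.4% were lower, 27.6% in all. Beside that, the called share was 57.1% in TGF-beta and activin targets, 47.1% in BMP targets and 8.7% in intracellular regulators. It was 52.9% in ligand processing and latent complex, 66.7% in other secreted antagonists and 100% in other ligands and co-receptors. The 2 target lists had medians of opposite sign. Of 21 tested TGF-beta and activin targets, 8 were higher and 4 were lower in A2780-ADR, with a median log2 fold change of 0.75. Higher targets included CTGF, a matricellular protein, at 507 ± 56.3 normalized counts in A2780-ADR and 17.2 ± 5.21 in A2780 (4.84), and SNAI2, a transcription factor of epithelial-mesenchymal transition, at 2567 ± 118 in A2780-ADR and 184 ± 5.21 in A2780 (3.79; SD, n = 3 each). The lower targets included LTBP2 and SMAD7, given above, and ANGPTL4, a regulator of lipoprotein lipase, at 450 ± 30.8 in A2780-ADR and 1796 ± 116 in A2780 (-1.995). Without the pathway genes themselves, 18 targets were tested, 7 higher and 2 lower, with a median of 0.76, and each had a mean of at least 10 in both lines. These genes answer to many inputs, and the signal that reached them was not measured.

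Of 17 tested BMP targets, 2 were higher and 6 were lower in A2780-ADR, with a median of -0.50. DLX5, a homeobox factor of bone, averaged 1.28 ± 1.47 normalized counts in A2780-ADR and 2466 ± 71.5 in A2780 (log2 fold change -10.30), and HEY1, a repressor also known from Notch signalling, averaged 126 ± 20.2 in A2780-ADR and 852 ± 17.7 in A2780 (-2.76). MSX2, a homeobox factor, averaged 61.3 ± 4.89 normalized counts in A2780-ADR and 0.69 ± 0.60 in A2780, which is 89.2 times as high (95% interval 24.4 to 742, counting error only), and SP7 (osterix) averaged 15.6 ± 3.39 in A2780-ADR and 4.46 ± 0.55 in A2780 (1.59; SD, n = 3 each). Without the pathway genes, 13 were tested, 2 higher and 4 lower, with a median of -0.44. MSX2 and SP7 passed the low-count filter only through A2780-ADR and DLX5 only through A2780, and among the 14 BMP targets with a mean of at least 10 in each line, 0 were higher and 5 were lower, with a median of -0.52.

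Of 24 intracellular regulators, 23 were tested, and 2 were called, both lower in A2780-ADR, which is 8.7% of those tested with a median of -0.16. NEDD4L, a ubiquitin ligase that marks activated SMAD2 and SMAD3 for degradation, averaged 57.1 ± 1.95 normalized counts in A2780-ADR and 1832 ± 67.1 in A2780 (log2 fold change -4.98; adjusted p = 3.3e-13, limma). The genes that follow NEDD4L directly on chromosome 18 fell further, from MALT1 (-9.98) to LMAN1 (-12.355), and the part of position was not tested. SKIL (SnoN), a SMAD co-repressor and a target of TGF-beta, averaged 645 ± 53.0 in A2780-ADR and 2225 ± 199 in A2780 (-1.78). The remaining 21 regulators were not called.

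Among 17 tested genes of ligand processing and the latent complex, 5 were higher and 4 were lower in A2780-ADR, with a median of 0.30. EMILIN1, a matrix glycoprotein that holds back maturation of the TGF-beta precursor in mice, averaged 6699 ± 616 normalized counts in A2780-ADR and 75.5 ± 4.42 in A2780 (6.45). ITGB6, the beta subunit of an integrin that activates latent TGF-beta, averaged 26.2 ± 2.15 in A2780-ADR and had 0 reads in A2780, which is at least 25.4-fold higher against a floor of 3 reads over the line, and THBS1, thrombospondin 1, another activator, averaged 94.1 ± 8.07 in A2780-ADR and 27.5 ± 2.02 in A2780 (1.74). Lower were ITGB3, an integrin beta subunit, at 0.96 ± 0.96 in A2780-ADR and 63.5 ± 5.91 in A2780, where A2780 was 66.4 times as high (95% interval 22.4 to 325, counting error only), FBN2, a fibrillin (-2.42), and LRRC32 (GARP), which tethers latent TGF-beta to the cell surface (-1.82). ITGB6, ITGB3 and LRRC32 passed the low-count filter through a single line, and the other 14 genes of the list held 4 higher and 2 lower, with a median of 0.30.

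Other secreted antagonists gave 12 tested genes, 2 higher and 6 lower in A2780-ADR, with a median of -1.07. The 2 higher genes, KCP and CRIM1, fit the name of the list only loosely, as their descriptions below show. Of these, CER1, FSTL5, CHRDL1, SOSTDC1 and BMPER passed the low-count filter only through A2780 and CRIM1 only through A2780-ADR, which leaves 6 genes with a mean of at least 10 in each line, 1 higher and 2 lower, with a median of -0.41. KCP, which enhances BMP signals in mice, averaged 915 ± 60.2 normalized counts in A2780-ADR and 36.4 ± 8.73 in A2780 (4.64), and CRIM1, a transmembrane protein that binds BMPs, averaged 25.8 ± 9.004 in A2780-ADR and 6.48 ± 3.52 in A2780 (1.89). SOSTDC1, an antagonist of BMP and Wnt, averaged 7.97 ± 1.07 in A2780-ADR and 776 ± 3.77 in A2780 (-6.44), FSTL5 averaged 2.23 ± 0.56 in A2780-ADR and 48.7 ± 2.24 in A2780 (-3.96), and CHRDL1, a relative of chordin, averaged 0.64 ± 1.11 in A2780-ADR and 185 ± 35.9 in A2780, where A2780 was 290 times as high (95% interval 79.9 to 2401, counting error only). Of the other ligands and co-receptors, 6 were tested and all 6 were called, 2 higher and 4 lower, with a median of -1.27. ENG (endoglin), the co-receptor that works with ACVRL1 in endothelium, averaged 981 ± 42.9 in A2780-ADR and 47.5 ± 10.3 in A2780 (4.36), and RGMA, a BMP co-receptor, averaged 29.7 ± 10.3 in A2780-ADR and 13.8 ± 0.89 in A2780 (1.01). RGMB, a relative of RGMA, averaged 167 ± 33.3 in A2780-ADR and 336 ± 30.9 in A2780, close to the 2-fold threshold (-1.02), and its call was lost without A2780-ADR replicate 2 (-0.87) or A2780 replicate 1 (-0.95), in edgeR (-0.99) and at equal totals (-0.98). The RGMA call was lost without A2780-ADR replicate 3 (0.75), A2780 replicate 1 (0.98) or A2780 replicate 2 (0.98). NRP1, a co-receptor of several growth factors, had 0 reads in A2780-ADR and averaged 59.2 ± 11.4 in A2780, at least 61.7-fold lower, so that it passed the filter only through A2780, while INHBC, another activin beta subunit gene, and GDF15, a distant family member, had log2 fold changes of -2.67 and -1.52.

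**Figure D5:**
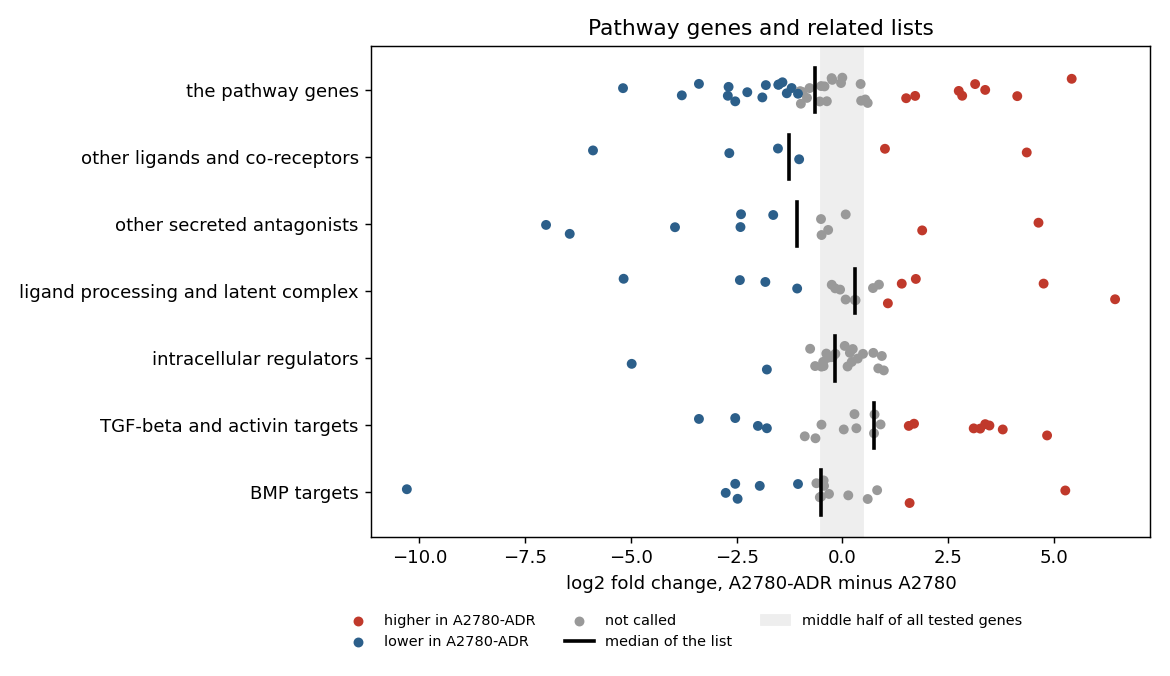
Log2 fold change (A2780-ADR minus A2780, x axis) of the tested pathway genes and of the 6 related lists, 1 point per gene, with a black bar at the median of each list and a grey band for the middle range of all tested genes (-0.49 to 0.50). Medians run from -1.27 for other ligands and co-receptors to 0.75 for TGF-beta and activin targets.

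Markers of other cell types were read beside these genes. Of 8 epithelial markers, KRT8 and KRT18 were higher in A2780-ADR, KRT7 had 0 reads in every sample, and PAX8, WT1 and MUC16 were under the filter, with 48, 20 and 11 reads in A2780-ADR and 4, 1 and 1 in A2780. EPCAM averaged 75.3 normalized counts in A2780-ADR and 54.6 in A2780 and was not called, nor was KRT19. The summed level of the list was 12350 to 13790 normalized counts in A2780-ADR and 279 to 308 in A2780. Of 7 fibroblast markers, 3 were higher (COL1A1, COL1A2, PDGFRB) and 2 were lower (DCN, PDGFRA), with sums of 39430 to 40370 in A2780-ADR and 30030 to 33440 in A2780, and COL1A1 and COL1A2 also belong to the TGF-beta target list. Of 4 endothelial markers, KDR was higher and PECAM1, CDH5 and VWF were at 9, 1 and 6 reads in A2780-ADR and 1, 0 and 0 in A2780, with sums of 27.4 to 37.6 in A2780-ADR and 0 to 1.06 in A2780, beside the higher ACVRL1 and ENG. Among leukocyte markers, PTPRC had 9 reads in A2780-ADR and 5 in A2780, and CD3E had 0 in both. The part of other cell types in the pathway results was not tested.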

How the data were processed

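Total RNA of 3 untreated samples of A2780-ADR and 3 of A2780 was sequenced with a stranded mRNA kit. The deposited signal table holds 58051 Ensembl genes, whose read counts the authors had divided by DESeq size factors. Its tools are listed by the submitters' processing notes as STAR, HTSeq and DESeq, on GRCh38. Versions, annotation release and strand setting were not given in the sources used here. Steps between low values gave the worth of a single read per sample. Since 100% of values came within 0.01 of a whole read, reads were recovered. Symbols, positions and exon lengths came from GENCODE 29, which named 57447 identifiers. Columns left without a sample numbered 0.

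Log2(normalized count + 1) of 17005 genes was compared with limma 3.58.1 (trend) in R 4.3.3, with all 6 samples, no covariate and Benjamini-Hochberg adjustment over all genes tested. A gene was called at an adjusted p under 0.05 with more than a 2-fold change. The fit was tested on simulated data. Alternatives were pseudocounts of 0.5 and 5, filters, scalings, limma's robust option, edgeR 4.0.16, DESeq2 1.42.0, a replicate block, no fold threshold, unadjusted p and leaving out each sample. Levels per kb used the union of all annotated exons. Intervals for genes with 1 to 3 reads in a line are exact (Clopper-Pearson, 95%) and cover counting error only. Promoter windows are from RefSeq (GRCh38.p14), and those with over 30 annotated exon bases were not printed. Python 3.11.15, numpy 2.4.6, pandas 2.3.3, scipy 1.17.1 and matplotlib 3.10.9 did the rest.

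The members and lists were chosen with earlier results of these data known. The called pathway genes were named with all sample values, the others with means or reads, and each list by up to 3 called genes per direction with the largest change, except that some genes of these lists are not reported here. The depth of 27775745 to 30513366 reads per sample limits genes with few reads.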

Additional observations from a re-analysis of the deposited data

How the results depend on the processing

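Over the 18 alternatives, 22 of the 23 called pathway genes kept their direction and their call wherever they were tested. The exception was SMAD6 (-0.94 without A2780-ADR replicate 3). The settings with no fold threshold and with unadjusted p only loosened the thresholds of the main fit, so no call could be lost in them. Calls were gained by BMP5 with edgeR (-1.05) and without A2780-ADR replicate 1 (-1.04) or A2780 replicate 1 (-1.25), by ACVR2B without A2780-ADR replicate 3 (-1.01), and by SMAD3 under TMM and without A2780-ADR replicate 1 (-1.03) or A2780 replicate 2 (-1.03). The uncalled values near 0 changed sign: BMPR2 was -0.00751 under TMM and -0.05162 to 0.04699 when a sample was left out, and SMAD5 was 0.00665 at equal totals and -0.11094 to 0.02204 when a sample was left out. RGMA lost its call at a pseudocount of 5 (0.85) and without A2780-ADR replicate 3 (0.75), A2780 replicate 1 (0.98) or A2780 replicate 2 (0.98), and RGMB lost its call with edgeR, at equal totals and without A2780-ADR replicate 2 or A2780 replicate 1.

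A filter at a mean of 50 left 2955 genes called in all, 3 pathway genes higher, 3 called among other ligands and co-receptors and 5 among other secreted antagonists, since fewer genes were tested. Without the fold threshold, 12210 genes were called in all, 25 pathway genes were lower, and calls numbered 15 in ligand processing and latent complex, 19 in intracellular regulators, 20 in TGF-beta and activin targets and 14 in BMP targets. On the recovered reads (100% whole), edgeR called 4748 genes and DESeq2 4694, against 4688 in limma. Leaving out a sample gave 4637 to 4742 genes in all, and 6 to 8 higher and 15 to 17 lower pathway genes, with higher genes lost through the filter. Replicate numbers are shared by the lines. Samples with the same number had deviation correlations of 0.00, -0.02 and 0.08, and those with different numbers had -0.09 to 0.09. With 3 samples per line, these values cannot show whether the samples were paired. With a replicate block, 4690 genes were called and 8 higher and 15 lower pathway genes, and no call of a pathway gene changed. Scalings moved the median of all genes by less than 0.1. Genes with few reads are limited by depth, and a single pair of lines was compared.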

Other observations

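Genes within 500 kb of the called pathway genes were read for their own values, a choice made after the data were seen and without a test. Around TGFB2, 3 of 4 tested neighbours were lower in A2780-ADR: LINC00210 averaged 0.32 normalized counts in A2780-ADR and 566 in A2780, UBBP2 averaged 0.64 in A2780-ADR and 347 in A2780, and LINC01653 was at 0 in A2780-ADR and 147 in A2780. The remaining neighbour, RRP15, averaged 1245 in A2780-ADR and 1606 in A2780 and was not called. Around LTBP2 on chromosome 14, 6 of 13 neighbours were lower and 0 were higher, with a median log2 fold change of -0.90. PGF, a vascular growth factor, averaged 107 normalized counts in A2780-ADR and 724 in A2780, and DLST, an enzyme of the citric acid cycle, averaged 1874 in A2780-ADR and 5417 in A2780. Around INHBE, 14 of 39 neighbours were lower and 1 was higher.

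ACVRL1 was higher in A2780-ADR, while 4 of its 7 neighbours were lower and 0 were higher. Over all tested genes, 27.6% were called and 14.4% were lower, and most of these stretches hold too few genes to be read against those shares. SMAD6 and SMAD3 are neighbours on chromosome 15, with log2 fold changes of -1.05 and -0.99. Neighbouring genes are not independent of each other, and the part of position in the pathway values was not tested.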
